A study of Mus musculus with 6 samples.

Results

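Chemokine receptors are G protein-coupled receptors that guide leukocytes along gradients of small secreted chemokines. The 8 receptor genes described here, *Xcr1*, *Ccr1*, *Ccr2*, *Ccr6*, *Ccr9*, *Cxcr3*, *Cxcr4* and *Cx3cr1*, were chosen by name as receptors that dendritic cells (DCs) are known to carry, out of 54532 gene identifiers in the deposited count tables. All 8 were among the 12894 genes with enough reads to be tested. RNA was measured in type 1 conventional DCs (cDC1s) in 6 libraries from bone marrow kept in culture for 8 days with 80 ng/mL of FLT3L, the growth factor on which DC development rests. In the 3 control libraries (named fl/fl 1, 2 and 3), both genes were floxed and no Cre was present (c-Jun/JunB fl/fl). In the other 3 (named Δ/Δ 1, 2 and 3, after the study's name for the deleted alleles) the same floxed alleles were combined with *Itgax*-Cre. Both groups thus share the floxed alleles and the FLT3L culture, and they differ by a Cre recombinase under the *Itgax* (CD11c) promoter, which is also active in other CD11c-expressing cells. The methods give female and male adult mice of a mixed genetic background for the study, and neither the age nor the sex of the mouse behind each library is stated in the labels. The labels do not say whether the replicates came from separate mice, whereas the study's supplement describes the points it plots for these samples as individual mice. The p-values measure the spread between these libraries. Cells were sorted by surface CD24 and CD11c and by the absence of B220, CD115 and CD172a, and none of the 8 receptors was used for the sort.

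In DCs, the receptors split into several roles. XCR1 binds XCL1, which is made by activated CD8 T cells and NK cells, and it is a defining surface marker of cDC1s. CCR1 and CCR2 bind inflammatory CC chemokines, and CCR2 is best known for the exit of monocytes from the bone marrow. CCR6 follows CCL20 towards epithelia, CCR9 follows CCL25 towards the thymus and small intestine, CXCR3 follows interferon-induced ligands, CXCR4 holds cells in CXCL12-rich bone marrow, and CX3CR1 binds the membrane-bound CX3CL1. CCR9 is known from plasmacytoid DCs (pDCs), and CX3CR1 from monocytes, macrophages and some other DCs.

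The libraries held 21693217 to 26788296 reads on genes. Levels are given as CPM (a gene's share of the library's reads on genes, corrected by the library's TMM factor and scaled up to a common library size), or as CPM per kilobase of exon where genes are compared with each other. A gene was called where the adjusted p was below 0.05 and the fold change was at least 1 on the log2 scale in edgeR's quasi-likelihood test. Of all tested genes, 1.86% were called (128 higher and 112 lower in Δ/Δ), 3.88% passed the adjusted p alone, and 26.0% had no overlap between the libraries of both genotypes. An unadjusted p below 0.05 in edgeR's test was reached by 2496 of the 12894. No share over all genes was taken for DESeq2's Wald test at the adjusted p alone. Counts of list members past that test thus have no background here. The targeted gene *Jun* was at 70.9, 52.5 and 63.1 CPM in fl/fl against 48.2, 44.3 and 60.5 CPM in Δ/Δ libraries (a log2 change of −0.29 ± 0.15 SE, edgeR adjusted p = 0.345). *Junb* was at 315, 274 and 413 CPM in fl/fl against 110, 171 and 212 CPM in Δ/Δ libraries (−1.02 ± 0.25, adjusted p = 0.0729), without overlap between the groups. Reads on both targeted genes thus remained in all Δ/Δ libraries, and which bases the deletion removes is not stated in the sources used here. The study reports that quantitative RT-PCR verified the deletion in DCs sorted from spleen and lymph nodes of this line. It also measured both genes by RT-PCR in cDC1s sorted from FLT3L cultures, with the values shown only in a figure. *Itgax*, the source of the Cre promoter and of the CD11c used in the sort, was called lower (−1.22 ± 0.17, adjusted p = 0.0147).

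*Ccr9* rose, *Xcr1* fell, and *Ccr2* rose by just less than the limit of a call in Δ/Δ cDC1s, and the other 5 receptors did not pass the test. Of the 8 receptors, 2 were called, 3 passed the adjusted p alone, and 4 had no overlap between the genotypes. Their median log2 fold change was 0.34, with 5 values above and 3 below 0, and their median absolute change was 0.78, beside 0.0018 and 0.16 over all tested genes. The coefficient of variation of the CPM over 3 libraries ran from 4.31% (*Cxcr4*) to 38.6% (*Ccr6*) in fl/fl and from 11.0% (*Ccr2*) to 67.3% (*Cx3cr1*) in Δ/Δ, and it was larger in Δ/Δ for every receptor but *Ccr2*.

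**Figure D1:**
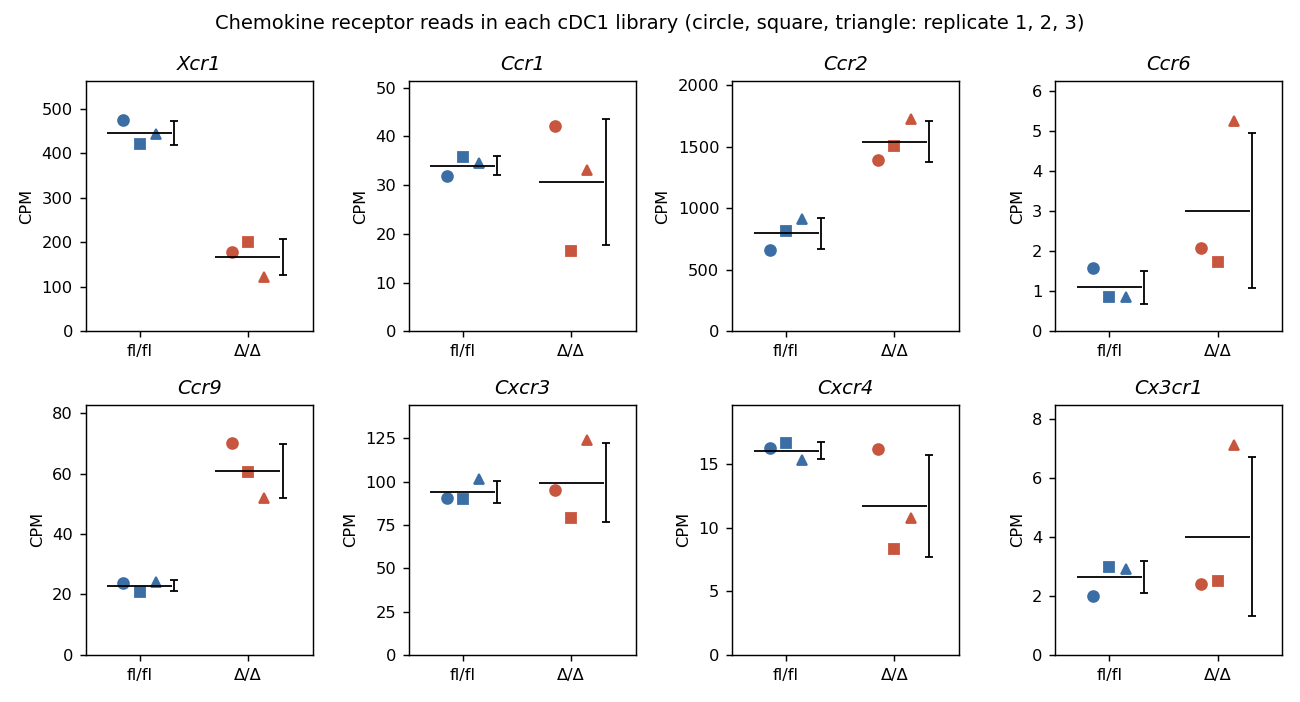
Each panel shows 1 receptor, with the CPM of each library on the vertical axis (starting at 0) and the genotype on the horizontal axis. Circles, squares and triangles are replicates 1, 2 and 3, lines are means of 3 libraries and bars are ± 1 SD. Xcr1 is lower, and Ccr9, Ccr2 and Ccr6 are higher, in every Δ/Δ library than in every fl/fl library, while the other panels overlap.

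The XCL1 receptor *Xcr1* (ENSMUSG00000060509.4, chromosome 9, 123852315 to 123862029, minus strand, GRCm38) had 475, 421 and 443 CPM in the fl/fl libraries. In the Δ/Δ libraries it had 178, 201 and 122 CPM. All 3 Δ/Δ libraries lay below all 3 fl/fl libraries, with Δ/Δ 3 the lowest, and the mean level was 2.67-fold lower. The fall was 1.42 on the log2 scale, with a fold change of −1.42 ± 0.17 SE (95% interval −1.82 to −1.01, edgeR adjusted p = 0.00812). The call was lost without fl/fl 1 (−1.37, adjusted p = 0.0569) or fl/fl 2 (−1.46, adjusted p = 0.0501), where the sizes stayed near the full value. The values rest on 2769 to 12316 reads per library.

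The 250 bases before the annotated start of *Xcr1* are shown because the study concerns AP-1 factors and this gene was the only one of the 8 called lower. They are from RefSeq on GRCm38.p6 at chr9:123862030-123862279, 5′ to 3′ on the minus strand, and capitals mark the 6 letters GGAAGT, the core that ETS factors are known to bind.
Xcr1: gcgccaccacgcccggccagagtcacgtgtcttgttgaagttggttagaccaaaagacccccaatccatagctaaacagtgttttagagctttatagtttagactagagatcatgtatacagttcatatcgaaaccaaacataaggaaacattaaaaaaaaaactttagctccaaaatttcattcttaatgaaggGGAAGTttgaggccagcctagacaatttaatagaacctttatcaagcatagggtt

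The sequence held GGAAGT once, 55 bases before the start. This motif was chosen after the sequences had been seen. It was found on either strand in 3 of the 9 promoter windows of the receptors (each 250 bases before to 50 after a start, with 2 windows for *Ccr6*), namely those of *Ccr6*, *Cxcr3* and *Xcr1*, and in 23.8% of 32851 RefSeq windows of the same length. Neither of the motifs searched for AP-1 and related factors was found in any of the 9 windows. The first, TGANTCA, was present in 7.81% and the second, TGACGTCA, in 1.79% of all windows. Composite elements of AP-1 and IRF factors, which the study discusses, were not searched. The GC content of the *Xcr1* sequence was 38.8%, below the median of 52.4% over all windows. The windows do not cover distal elements, and a match or its absence here says nothing about binding.

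All 11 other cDC1 markers had smaller fold changes than *Xcr1*, and this difference was not tested. *Clec9a*, a cDC1 receptor for dead cells, was at 270, 273 and 267 CPM in fl/fl against 203, 266 and 270 CPM in Δ/Δ libraries (−0.13 ± 0.11, edgeR adjusted p = 0.554). The transcription factor *Irf8*, on which cDC1s depend, changed by 0.04 ± 0.05 (adjusted p = 0.687). Of the 11, 3 fell past the adjusted p without being called, namely the RNA sensor gene *Tlr3* (−0.77 ± 0.13, adjusted p = 0.0226), *Snx22* (−0.86 ± 0.17, adjusted p = 0.0375) and *Rab7b* (−0.39 ± 0.07, adjusted p = 0.0253). Of all 11, 4 had log2 fold changes above and 7 below 0, and DESeq2's Wald test passed 6. Among these was the adhesion gene *Cadm1*, which lay higher in Δ/Δ without overlap (0.32 ± 0.07, edgeR adjusted p = 0.0615). *Wdfy4* (−0.28 ± 0.07, edgeR adjusted p = 0.0876) and *Cd24a* (−0.30 ± 0.07, adjusted p = 0.0605) lay lower in Δ/Δ, also without overlap. *Itgae* (CD103) overlapped, with 151, 206 and 258 CPM in fl/fl and 201, 892 and 229 CPM in Δ/Δ libraries (1.10 ± 0.57, adjusted p = 0.343), and stood apart in Δ/Δ 2. The summed level of the 11 was 11582 to 11870 CPM in fl/fl and 9470 to 11286 CPM in Δ/Δ libraries. Reads on *Xcr1* per read on *Clec9a*, a ratio that does not depend on library scaling, were 1.76, 1.54 and 1.66 in fl/fl and 0.875, 0.756 and 0.451 in Δ/Δ libraries. In RNA of whole sorted populations, fewer *Xcr1*-expressing cells and less *Xcr1* RNA per cell cannot be told apart.

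*Ccr9* (ENSMUSG00000029530.16, chromosome 9, 123678439 to 123784330, plus strand), the receptor for CCL25, moved the other way. Its levels were 23.9, 20.8 and 24.0 CPM in fl/fl libraries. In Δ/Δ libraries they were 69.9, 60.4 and 52.0 CPM. The lowest Δ/Δ library thus lay well above the highest fl/fl library, and the mean was 2.65-fold higher. The log2 fold change was 1.41 ± 0.12 SE (95% interval 1.12 to 1.70, edgeR adjusted p = 0.00333). It was called under all 12 alternative settings of the test, including the omission of each library. As a level it remained modest, with 2.23 CPM per kilobase of exon in fl/fl and 5.92 in Δ/Δ libraries, above 30.1% and 50.3% of tested genes. This ordering is uncertain by the length used, since the annotated exons of *Ccr9* cover 10260 bases and its longest transcript 5197 bases, which gives 4.41 and 11.7 CPM per kilobase.

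*Ccr9* also shares annotated bases with other genes, which bears on how reads were assigned. Its exons overlap 1932 bases of AC165425.1 and 22 bases of *Slc6a20a* on the opposite strand and 269 bases of *Gm17200* on the same strand. The strand setting behind the deposited counts is not stated in the sources used here, so reads in the opposite-strand overlaps are uncertain. AC165425.1 had 1 to 4 reads, *Slc6a20a* 31 to 86 reads and *Gm17200* 19 to 79 reads per library, beside 560 to 1724 on *Ccr9*. The sequence before the RefSeq start of *Ccr9*, which lies inside the longer GENCODE gene, is shown for comparison with that of *Xcr1*, at chr9:123766961-123767210 on the plus strand. It held none of the 3 motifs and has no capitals.
Ccr9: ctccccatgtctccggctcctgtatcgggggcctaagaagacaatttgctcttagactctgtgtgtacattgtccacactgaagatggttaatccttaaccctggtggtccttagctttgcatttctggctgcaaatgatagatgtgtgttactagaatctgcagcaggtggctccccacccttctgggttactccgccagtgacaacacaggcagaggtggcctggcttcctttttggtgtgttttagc

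Markers of pDCs, in which CCR9 is known, were followed beside *Ccr9*. Of 11 pDC markers, 9 were tested and none passed the adjusted p in edgeR's test or limma-voom, while 3 had an unadjusted p below 0.05 and the same number, *Siglech*, *Bst2* and *Cd300c*, passed in DESeq2's Wald test. Of the 9 log2 fold changes, 6 lay above and 3 below 0. Their summed level ranged from 234 to 251 CPM in fl/fl and from 214 to 318 CPM in Δ/Δ libraries. *Siglech*, a pDC surface lectin, was at 7.79, 10.8 and 8.61 CPM in fl/fl against 19.7, 16.5 and 37.5 CPM in Δ/Δ libraries (1.44 ± 0.32, adjusted p = 0.0568), also without overlap. *Bst2*, which encodes the antiviral protein tetherin, lay in the opposite direction, at 109, 102 and 89.1 CPM in fl/fl and 79.0, 70.5 and 77.6 CPM in Δ/Δ libraries (−0.41 ± 0.09, adjusted p = 0.0572). *Cd300c* had 3.93, 4.97 and 11.2 CPM in the fl/fl and 15.8, 29.8 and 48.3 CPM in the Δ/Δ libraries (2.23 ± 0.51, adjusted p = 0.0634), and neither of these genes overlapped between the genotypes. Further pDC genes, *Klk1* and *Cox6a2*, were at or near 0 (at most 0.0423 and 0.280 CPM). *Siglech* was highest in Δ/Δ 3, the library in which *Ccr9* was lowest among the Δ/Δ libraries. The part of pDC-like RNA in the *Ccr9* values was not tested.

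*Ccr2* (ENSMUSG00000049103.14, chromosome 9, 124101950 to 124113557, plus strand), the receptor for CCL2, was the most abundant of the 8 genes. It had 659, 813 and 909 CPM in fl/fl libraries. In Δ/Δ libraries it had 1392, 1503 and 1724 CPM. The groups did not overlap, and the mean was 1.94-fold higher in Δ/Δ. Its log2 fold change of 0.96 ± 0.13 SE (95% interval 0.65 to 1.26) passed the adjusted p (edgeR, 0.0130) and stayed just under the limit of 1, so it was not called. It was past that limit without fl/fl 3 (1.06) or Δ/Δ 1 (1.03), and lost the adjusted p without fl/fl 2 (0.97, adjusted p = 0.0813).

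The sequence before the RefSeq start of *Ccr2*, at chr9:124101933-124102182 on the plus strand, is given as that of the other receptor that rose. The GENCODE gene begins earlier, at 124101950, so most of these bases lie inside it. It held none of the 3 motifs either, and its GC content was 37.2%, close to that of *Xcr1*, beside 50.4% before *Ccr9*.
Ccr2: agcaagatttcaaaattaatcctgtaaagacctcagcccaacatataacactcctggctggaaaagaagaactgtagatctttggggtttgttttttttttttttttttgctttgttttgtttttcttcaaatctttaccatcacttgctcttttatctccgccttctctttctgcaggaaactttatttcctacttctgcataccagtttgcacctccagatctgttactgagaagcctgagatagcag

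Genes of cDC2s and monocytes, cells in which CCR2 is known, were examined beside *Ccr2*. The summed level of 10 cDC2 markers was 225 to 371 CPM in fl/fl and 520 to 754 CPM in Δ/Δ libraries. Of these, 3 rose past the adjusted p, namely the lectin gene *Cd209a* (2.25 ± 0.25, edgeR adjusted p = 0.00556), *Cd4* (2.30 ± 0.43, adjusted p = 0.0339) and the transcription factor *Klf4* (0.97 ± 0.18, adjusted p = 0.0321), and the first pair were called. Of the 10 log2 fold changes, 8 lay above and 2 below 0. The latter were *Sirpa* (CD172a, −0.21 ± 0.13, adjusted p = 0.430) and *Esam* (−0.16 ± 0.90, adjusted p = 0.864). *Irf4* (1.26 ± 0.30, edgeR adjusted p = 0.0699), *Itgam* (0.95 ± 0.25, adjusted p = 0.0927) and *Clec4a4* (0.93 ± 0.31, adjusted p = 0.167) lay higher in Δ/Δ without overlap. *Clec10a* and *Mgl2* lay higher with overlap. Of the 10, 6 had an unadjusted p below 0.05 in edgeR's test and 5 passed in DESeq2's Wald test. The sum of 8 monocyte and macrophage markers was 1791 to 1974 CPM in fl/fl and 1963 to 2588 CPM in Δ/Δ libraries. Most of it was *Lyz2*, at 1760, 1939 and 1921 CPM in fl/fl and 2378, 1895 and 2520 CPM in Δ/Δ libraries (0.27 ± 0.11, edgeR adjusted p = 0.233). Of 6 tested members, 4 had log2 fold changes above and 2 below 0. The latter were *Ly6c2* (−0.45 ± 0.33, adjusted p = 0.503) and *Fcgr1* (−0.36 ± 0.37, adjusted p = 0.632). Only *Adgre1* (F4/80) passed the adjusted p, and it rose (0.91 ± 0.17, adjusted p = 0.0317). *Cd14* was at 12.2 CPM in Δ/Δ 3 and at most 1.53 CPM in every other library (2.33 ± 1.06, edgeR adjusted p = 0.287). *Vcan*, expressed by monocytes, was at most at 0.347 CPM. The part of either cell type in the *Ccr2* values was not tested.

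Reads on *Ccr2* per read on *Xcr1* were 1.39, 1.93 and 2.05 in fl/fl libraries. They were 7.84, 7.46 and 14.1 in Δ/Δ libraries. Reads on *Ccr9* per read on *Xcr1* were 0.0504, 0.0493 and 0.0541 in the former and 0.394, 0.300 and 0.426 in the latter. Both ratios were thus higher in every Δ/Δ library, and they combine the changes given above for each gene rather than adding a further measurement. Per read on *Cxcr3*, which did not pass the test, reads on *Xcr1* were 5.25, 4.69 and 4.36 in fl/fl and 1.87, 2.55 and 0.985 in Δ/Δ libraries.

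The remaining receptors did not pass the test. *Ccr6* (ENSMUSG00000040899.14, chromosome 17, 8236043 to 8257141, plus strand), the CCL20 receptor, was at 1.58, 0.853 and 0.848 CPM in fl/fl against 2.07, 1.73 and 5.24 CPM in Δ/Δ libraries. All Δ/Δ values lay above all fl/fl values, but Δ/Δ 3 stood apart from both others. The log2 fold change was 1.46 ± 0.51 SE (95% interval 0.26 to 2.65, edgeR adjusted p = 0.180), and 0.79 without Δ/Δ 3. With 20 to 119 reads per library, *Ccr6* was the least counted of the 8 genes.

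*Cx3cr1* (ENSMUSG00000052336.7, chromosome 9, 119901616 to 120069879, minus strand), the receptor for CX3CL1, was similarly low, at 2.01, 2.97 and 2.93 CPM in fl/fl and 2.39, 2.52 and 7.14 CPM in Δ/Δ libraries. Only Δ/Δ 3 exceeded the fl/fl range. Its log2 fold change was 0.61 ± 0.46 SE (95% interval −0.47 to 1.69, edgeR adjusted p = 0.510), and −0.10 without Δ/Δ 3. The same library was thus the highest for both low receptors, and also the lowest for *Xcr1* and the highest for *Ccr2* and *Siglech*. In Δ/Δ 1, 2 and 3, the summed cDC2 markers were at 520, 613 and 754 CPM. The summed monocyte and macrophage markers were at 2426, 1963 and 2588 CPM. The part of these markers in the values of both low receptors was not tested. The summed level of 10 immediate early genes, which respond to handling and stimulation, was 2496 CPM in Δ/Δ 3 and 2057 CPM in Δ/Δ 2, against 1069 CPM in Δ/Δ 1 and 773 to 1148 CPM in fl/fl libraries. None of those 10 genes passed the adjusted p in edgeR's test or limma-voom, 7 had an unadjusted p below 0.05 and 3 passed in DESeq2's Wald test, and their part in the receptor values was not tested.

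*Cxcr3* (ENSMUSG00000050232.6, chromosome X, 101731535 to 101734269, minus strand), whose ligands are induced by interferon, was at 90.4, 89.8 and 101.5 CPM in fl/fl against 94.9, 78.9 and 123.9 CPM in Δ/Δ libraries. The Δ/Δ libraries lay on both sides of the fl/fl libraries. The log2 fold change was 0.08 ± 0.16 SE (95% interval −0.29 to 0.45, edgeR adjusted p = 0.822), so that a change of 1 on the log2 scale lay outside the interval in either direction.

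*Ccr1* (ENSMUSG00000025804.5, chromosome 9, 123962124 to 123968692, minus strand), a receptor for CCL3 and CCL5, was at 31.8, 35.7 and 34.5 CPM in fl/fl against 42.2, 16.6 and 33.2 CPM in Δ/Δ libraries. The Δ/Δ libraries held both the highest and the lowest of the 6 values. Its log2 fold change was −0.15 ± 0.30 SE (95% interval −0.85 to 0.55, edgeR adjusted p = 0.823).

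*Cxcr4* (ENSMUSG00000045382.6, chromosome 1, 128588199 to 128592293, minus strand), the CXCL12 receptor, was at 16.3, 16.6 and 15.3 CPM in fl/fl against 16.2, 8.35 and 10.7 CPM in Δ/Δ libraries. Δ/Δ 1 lay within the fl/fl range and both others below it. Its log2 fold change was −0.45 ± 0.23 SE (95% interval −0.99 to 0.09, edgeR adjusted p = 0.340), and it passed the adjusted p without Δ/Δ 1 (−0.75, adjusted p = 0.0242). Δ/Δ 2, in which *Ccr1* and *Cxcr4* were lowest, had the highest summed level of 10 mature DC genes, 2324 CPM, against 632 and 800.2 CPM in the other Δ/Δ libraries and 933 to 1235 CPM in fl/fl libraries. None of these 10 genes passed the adjusted p in edgeR's test or limma-voom, 1 had an unadjusted p below 0.05 and 1 passed in DESeq2's Wald test, and their part in the receptor values was not tested.

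**Figure D2:**
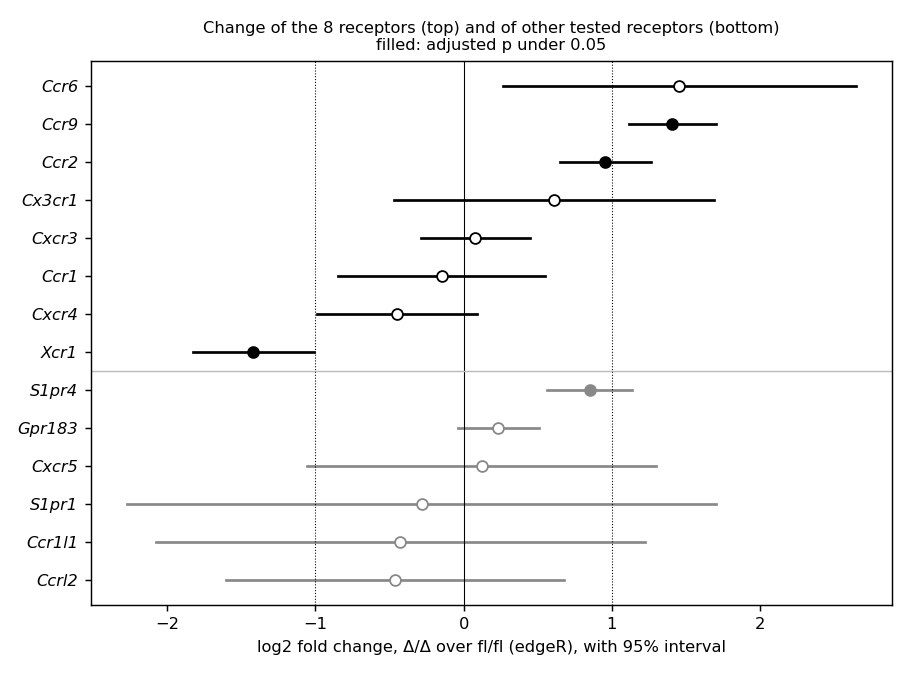
The horizontal axis gives the log2 fold change of Δ/Δ over fl/fl, with 95% intervals as lines, for the 8 receptors (black, above) and 6 of the 7 other receptors with enough reads (grey, below). Filled points passed an adjusted p of 0.05 over all 12894 genes and dotted lines mark changes of 1. Ccr9, Ccr2 and Xcr1 are filled above and S1pr4 below, and Ccr6 and Cx3cr1, which had few reads, have wide intervals.

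Compared per length, the order of the receptors in fl/fl libraries was *Ccr2* (117 ± 18.7 CPM per kilobase of exon, SD, n = 3), *Xcr1* (100.2 ± 6.09), *Cxcr3* (54.3 ± 3.80), *Ccr1* (12.0 ± 0.712), *Cxcr4* (8.90 ± 0.384), *Ccr9* (2.23 ± 0.180), *Cx3cr1* (0.584 ± 0.121) and *Ccr6* (0.472 ± 0.182). *Ccr2* and *Xcr1* overlapped in range, as did *Cx3cr1* and *Ccr6*, and the other neighbours did not. *Ccr2* and *Xcr1* lay above 97.3% and 96.8% of tested genes. In Δ/Δ libraries the order was *Ccr2* (228 ± 25.0), *Cxcr3* (57.3 ± 13.2), *Xcr1* (37.5 ± 9.15), *Ccr1* (10.8 ± 4.58), *Cxcr4* (6.51 ± 2.22), *Ccr9* (5.92 ± 0.876), *Ccr6* (1.30 ± 0.835) and *Cx3cr1* (0.892 ± 0.600). The ranges of *Ccr1* and *Cxcr4*, of *Cxcr4* and *Ccr9*, and of *Ccr6* and *Cx3cr1* overlapped. The lowest *Cxcr3* value (45.6) lay just above the highest *Xcr1* value (45.2), so *Xcr1* moved from above to below *Cxcr3* as a level. With the length of the longest transcript instead, *Ccr2* lay above *Xcr1* in fl/fl without overlap (139 ± 22.0 against 100.2 ± 6.09), *Ccr9* ranked above *Ccr1* and *Cxcr4* in Δ/Δ, and *Ccr6* above *Cx3cr1* in fl/fl.

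As a share of the summed per-length level of the 8 receptors, *Xcr1* took 38.1, 32.4 and 31.4% in fl/fl libraries. It took 12.0, 13.7 and 7.20% in Δ/Δ libraries. *Ccr2* took 34.8, 41.2 and 42.5% in fl/fl and 61.9, 67.2 and 67.0% in Δ/Δ libraries. By exon length, *Ccr2* thus took a larger share in every Δ/Δ library than in any fl/fl library, and *Xcr1* a smaller one. The summed CPM of the 8 was 1300.1, 1401 and 1531 in fl/fl and 1797, 1873 and 2079 in Δ/Δ libraries, without overlap.

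**Figure D3:**
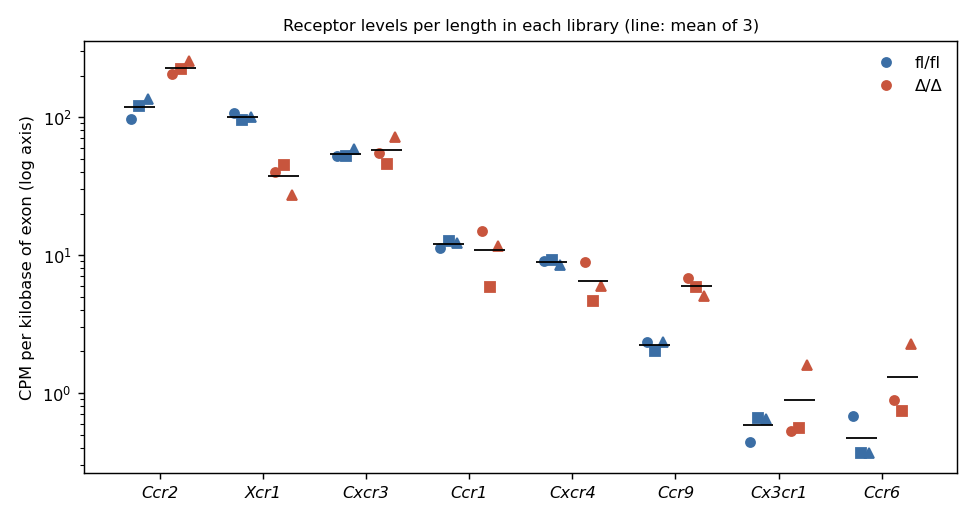
The vertical log axis gives CPM per kilobase of exon for the 8 receptors, ordered by their level in fl/fl libraries, with blue for fl/fl, red for Δ/Δ, symbols for replicates and lines for means of 3. Xcr1 overlaps Ccr2 in fl/fl and lies just under Cxcr3 in Δ/Δ.

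A shared position was a property that the choice of genes did not use. Of the 8 receptors, 5 lie on chromosome 9, and 4 of them (*Ccr9*, *Xcr1*, *Ccr1* and *Ccr2*) start within 1 Mb of the *Xcr1* start, in a cluster of chemokine receptor genes. The starts, on the coordinate axis of GRCm38, lie at −183.6 kb (*Ccr9*), −55.6 kb (*Cxcr6*), 106.7 kb (*Ccr1*), 116.4 kb (*Ccr1l1*), 159.9 kb (*Ccr3*) and 239.9 kb (*Ccr2*) from that of *Xcr1*. Changed genes of the cluster moved in both directions. *Xcr1* fell between *Ccr9* and *Ccr2*, which rose, and *Ccr1* between *Xcr1* and *Ccr2* did not pass the test. *Fyco1*, whose start lies 10.1 kb from that of *Xcr1* and whose product carries autophagic vesicles, changed by 0.16 ± 0.11 (edgeR adjusted p = 0.486).

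Of the other receptors of the cluster, *Ccr1l1* had at most 1.16 CPM (−0.43 ± 0.70, adjusted p = 0.782), *Cxcr6* at most 0.485 CPM and too few reads to be tested. *Ccr3* had no read in any library, which allows up to 0.0392 CPM over the fl/fl and 0.0436 CPM over the Δ/Δ libraries (3 reads pooled over each group, counting error only).

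Within 1 Mb of *Xcr1*, 30 of 58 annotated genes were tested, 4 passed the adjusted p and 3 were called. Over all tested genes the shares were 3.88% and 1.86%. The window is centred on *Xcr1*, and *Xcr1*, *Ccr9* and *Ccr2* make up 3 of the 4 that passed. These 3 were chosen by name, and *Slc6a20a* was the only other gene of the window to pass. The third called gene beside *Xcr1* and *Ccr9* was *Slc6a20a*, an amino acid transporter gene that starts at the 5′ end of the annotated *Ccr9* gene on the opposite strand. It was at 1.27, 1.26 and 1.32 CPM in fl/fl against 3.49, 2.85 and 2.51 CPM in Δ/Δ libraries (1.20 ± 0.24, edgeR adjusted p = 0.0414). Its values and those of *Ccr9* ranked the 3 Δ/Δ libraries alike.

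**Figure D4:**
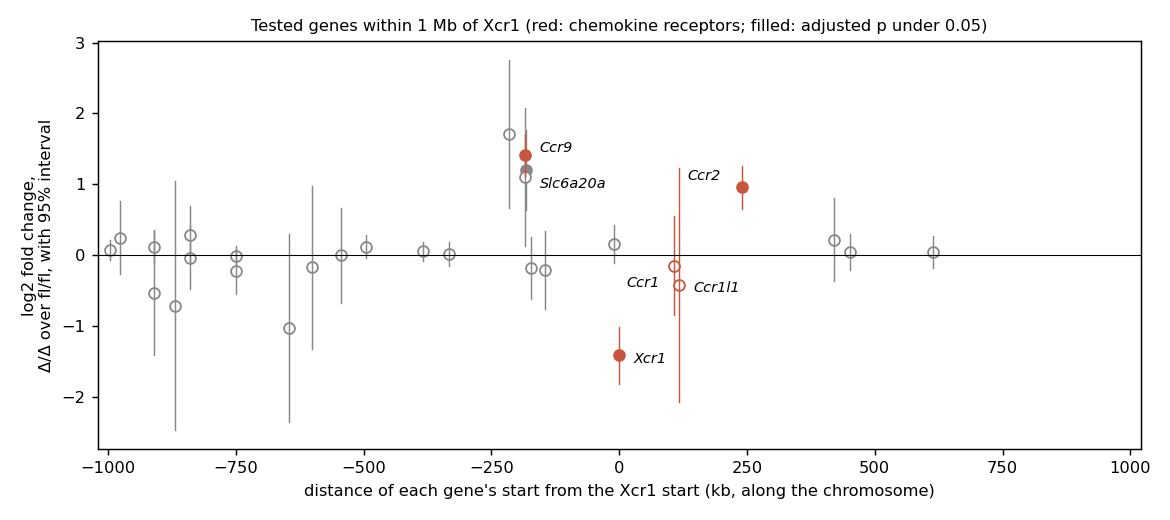
Each point is 1 of 29 genes within 1 Mb of Xcr1, out of 30 that were tested there. The horizontal axis gives the distance of its start from the Xcr1 start in kb and the vertical axis its log2 fold change of Δ/Δ over fl/fl with the 95% interval. Chemokine receptors are red and genes past an adjusted p of 0.05 are filled. Xcr1 lies below 0 between Ccr9 and Ccr2, which lie above 0.

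Genes with a pattern most like that of a changed receptor were sought among 11599 tested genes with a mean of at least 1 CPM. Likeness was the root mean square difference over the 6 libraries in log2 CPM, after centring each gene on its own mean. For *Xcr1* the nearest were *Agpat3*, which encodes an acyltransferase of lipid synthesis (difference 0.103, with 192, 183 and 184 CPM in fl/fl and 63.8, 71.9 and 47.0 CPM in Δ/Δ libraries), the cytokine gene *Il15* (0.147) and the long non-coding RNA *2310031A07Rik* (0.171). For *Ccr2* the near genes reported here were the glucose transporter gene *Slc2a3* (0.0866, with 34.0, 43.8 and 43.9 CPM in fl/fl and 80.7, 78.3 and 97.4 CPM in Δ/Δ libraries) and the nuclear factor gene *Aff3* (0.100). For *Ccr9* they were *Slc6a20a* (0.144), the pseudogene *Gm9816* (0.156) and the olfactory receptor gene *Olfr433* (0.215). These genes were picked by likeness over the same 6 libraries, so their genotype differences are no separate evidence.

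Most chemotactic receptors outside the 8 had too few reads to be tested. Of 21 such symbols listed, 20 had an identifier, and the remaining one, *Cmklr2*, is another name of *Gpr1*, which is also listed. Of these 20 genes, 7 were tested and 4 had no read in any library. The only 1 of these 7 to pass the adjusted p was *S1pr4*, a receptor for sphingosine 1-phosphate, with 31.6, 34.4 and 40.6 CPM in fl/fl and 63.2, 57.1 and 71.8 CPM in Δ/Δ libraries (0.85 ± 0.12, edgeR adjusted p = 0.0152). It rose without overlap and was not called.

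Of 18 chemokines that act on the 8 receptors or their relatives, 7 were tested and none passed the adjusted p in edgeR, DESeq2 or limma-voom, with 1 at an unadjusted p below 0.05 in edgeR, and 3 log2 fold changes below and 4 above 0. *Xcl1*, the XCR1 ligand, had at most 0.127 CPM, and *Ccl20* and *Cxcl12*, the ligands of CCR6 and CXCR4, had no read. The list's sum was 111 to 161 CPM in fl/fl and 31.0 to 114 CPM in Δ/Δ libraries. *Ccl5*, named here after its values had been seen, was at 114, 73.3 and 108 CPM in fl/fl against 4.99, 53.6 and 20.8 CPM in Δ/Δ libraries (−1.90 ± 0.69, edgeR adjusted p = 0.194). It did not overlap, but its Δ/Δ libraries differed widely. Of 37 genes that carry or dampen receptor signals to the cytoskeleton and integrins, 36 were tested and 1 passed the adjusted p. This was *Gng2*, a G protein γ subunit, with 185, 189 and 192 CPM in fl/fl and 151, 121 and 147 CPM in Δ/Δ libraries (−0.43 ± 0.09, adjusted p = 0.0458). The median of the signalling list was −0.02 on the log2 scale, with 17 values above and 19 below 0. DESeq2's Wald test passed 8 of these 36 genes.

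Markers of neutrophils, lymphocytes, basophils and mast cells were low. Of 8 neutrophil markers, 3 were tested with none past the adjusted p in edgeR's test or limma-voom, 1 at an unadjusted p below 0.05 and 1 past in DESeq2's Wald test, summed levels were 4.20 to 17.6 CPM in fl/fl and 0.852 to 7.42 CPM in Δ/Δ libraries, and *Ly6g* and *Elane* had no read. The 6 B cell markers, of which 5 were tested and 0 had even an unadjusted p below 0.05 in edgeR's test, summed to 18.8 to 30.9 CPM in fl/fl and 12.8 to 49.9 CPM in Δ/Δ libraries. The 7 T and NK cell markers, in whose cells *Cxcr3* is also known, had 1 tested, past neither the adjusted p nor an unadjusted p of 0.05 in edgeR's test, with 0.927 to 1.10 CPM in fl/fl and 0.852 to 1.17 CPM in Δ/Δ libraries. The 6 basophil and mast cell markers, with 1 tested, likewise past neither, summed to 0.463 to 1.26 CPM in fl/fl and 1.10 to 16.8 CPM in Δ/Δ libraries, with the highest value in Δ/Δ 2. Of the 5 genes behind the sort gate, *Itgax* alone passed the adjusted p in edgeR's test, while 3 had an unadjusted p below 0.05 and 3 passed in DESeq2's Wald test. Beside *Itgax* these were *Cd24a* (−0.30 ± 0.07, edgeR adjusted p = 0.0605) and *Ptprc*, the gene of which B220 is a form (0.25 ± 0.07, adjusted p = 0.122), both without overlap.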

How the data were processed

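RNA of sorted cDC1s was sequenced in 3 fl/fl and 3 Δ/Δ libraries. Per the labels and methods, the authors made poly(A) libraries with a directional kit, aligned reads to GRCm38 (mm10) with STAR 2.6.1a, and deposited raw read counts per gene, neither normalized nor pooled. Which strand was counted is not given in these sources. Rows of reads outside genes were removed, and 79.1 to 79.7% of reads lay on genes.

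Names, lengths and coordinates came from GENCODE M21 (54495 of 54532 identifiers matched). Counts were fitted on genotype alone in edgeR 4.0.16 (R 4.3.3; TMM factors 0.989 to 1.01; filterByExpr at its settings of 10 reads and 15 in total; glmQLFit, glmQLFTest), with Benjamini-Hochberg adjustment over 12894 genes. Errors are SE for fold changes and SD for levels. Likeness used log2 CPM with a prior count of 2. Promoters came from RefSeq (GRCm38.p6), in which all 8 receptors matched. The chi-square per degree of freedom between replicate libraries was 6.35 to 10.4 (fl/fl) or 27.9 to 38.5 (Δ/Δ), so they differed by more than counting error. This cannot show whether they came from separate mice, and all 6 were treated as replicates.

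The receptors, lists, tests and alternatives (DESeq2 1.42.0, limma-voom of limma 3.58.1, other normalization and filters, a replicate block, each library left out, another length) were chosen with earlier results of these data known. Genes named are the 8 receptors, other receptors within 1 Mb of *Xcr1*, members of the receptor, ligand and signalling lists past the adjusted p, nearest patterns, the targeted genes and *Itgax*, and markers beside the results they touch. Ligands at 0 reads or with few reads, *Fyco1*, *Slc6a20a* and the overlapping genes were named after their values had been seen. Some results under these rules are not reported here. The tests of edgeR, limma-voom and DESeq2 were tried on simulated counts, with a common dispersion for all genes and both genotypes. The other steps were not simulated.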

Additional observations from a re-analysis of the deposited data

How the results depend on the processing

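The 240 calls over 12894 genes in edgeR became 385 with DESeq2's Wald test and 500 with the adjusted p alone, and ran from 74 to 579 when 1 library was left out (74, 80 and 154 with fl/fl 1, 2 and 3 omitted, and 579 and 370 with Δ/Δ 1 and 2 omitted). The cause was not tested. The receptors called stayed at 2 with DESeq2's size factors, its Wald test, limma-voom, no filter and a stricter filter, were 3 with the adjusted p alone, and ran from 1 (without fl/fl 1 or fl/fl 2, where *Xcr1* was lost) to 3 (without fl/fl 3 or Δ/Δ 1, where *Ccr2* was added). With a replicate block 207 genes and 2 receptors were called. The labels do not say whether same-numbered libraries belong together. Correlations of their deviations were 0.0910, −0.148 and 0.200. Libraries fl/fl 1 and fl/fl 3 deviated most like the Δ/Δ library of the same number, and fl/fl 2 most like Δ/Δ 1 (0.152). A pairing is thus neither shown nor excluded, and nothing is drawn from the block. Of 96 recomputed receptor fold changes, 89 kept direction and side of the adjusted p, 3 lost the adjusted p, 1 gained it and 3 reversed. The reversed values were in receptors not past the test, with log2 fold changes between −0.45 and 0.15 for *Ccr1* (positive only without Δ/Δ 2), −0.11 and 0.22 for *Cxcr3* (negative only without Δ/Δ 3) and −0.10 and 0.88 for *Cx3cr1* (negative only without Δ/Δ 3). By the longest transcript, 4 of 16 levels per length moved beyond 1 SD, namely those of *Ccr2* and *Ccr9* in both genotypes. *Ccr6* and *Cx3cr1* had the fewest reads of the 8, with 20 to 162 per library.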
